A study of Mus musculus with 2 samples.

Results

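Dnm3, which encodes dynamin 3, and Dnm3os, the transcript on its opposite strand, were examined for intervals of LHX6 enrichment in the maxillary arch, the embryonic tissue of the upper jaw. An interval was taken where the authors had assigned it to Dnm3 or Dnm3os, or where its summit, the position of highest density, lay inside Dnm3 or within 50 kb of it. This gave 15 intervals of 6566 in all, of which 14 had their summit inside Dnm3 and 1 lay outside it. The gene was selected on the number of intervals in it, and the members were chosen by the deposited positions and gene assignments of this same library, so that their number, heights and spacing are descriptions and carry no test.

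The data were 1 LHX6 chromatin immunoprecipitation (ChIP-seq) library, made with a rabbit polyclonal antibody to LHX6, and 1 input library made without antibody. Both came from wild-type CD-1 (CD1) mouse embryos at E11.5, with the maxillary arches of 47 embryos pooled and no agent or mutation in either group. There were no replicates, so no value below has a replicate error, and pooled whole arches do not show which cells were bound. Gene expression was not measured, so the tissue label was not checked against marker genes. The deposited table lists 6566 LHX6 intervals and 6 input intervals, with a height for each (the highest density of 150 bp fragments) and a mean density. Total reads are unknown here, and whether densities were scaled between libraries is not stated. None of the 6 input intervals lay on chromosome 1, and 0 overlapped an interval of the Dnm3 locus; the list gives no input value at these positions.

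Dynamins are large GTPases that pinch vesicles from the cell membrane, and dynamin 3 is known mainly from brain and testis. Dnm3os is a noncoding RNA that is processed into the microRNAs miR-199a and miR-214, and mice that lack it have defects of the skeleton and of growth. A microRNA pairs through its seed, a short stretch near its 5′ end, with messenger RNAs and lowers their output. TWIST1, a basic helix-loop-helix factor of cranial mesenchyme, is known to activate this transcript. LHX6 is a LIM homeodomain transcription factor of the oral mesenchyme.

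The microRNAs made from Dnm3os are shown because 2 of the intervals lay over their hairpins. The mature sequences are those of RefSeq (build GRCm38.p6), written 5′ to 3′, with the seed, bases 2 to 8, in capitals.
miR-199a-5p: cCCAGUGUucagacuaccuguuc
miR-199a-3p: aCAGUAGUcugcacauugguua
miR-214-5p: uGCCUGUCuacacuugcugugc
miR-214-3p: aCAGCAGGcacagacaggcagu
The 4 seeds differ from each other. The same miR-199a strands are also made from Mir199a-1 on chromosome 9, and miR-199b-3p from chromosome 2 is identical to miR-199a-3p, seed included.

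The summits that the results turn on are shown as 200 bp windows of mouse build NCBIM37 (mm9), on the plus strand. Capitals mark 3 homeodomain hexamers, which are TGATTG and also TGATTA and also TAATTA, and 2 E-boxes, which are CATCTG and CAGCTG. A site on the minus strand reads as CAATCA for TGATTG, as TAATCA for TGATTA and as CAGATG for CATCTG. These hexamers were taken from an earlier analysis of the same library, so their presence is described and not tested. Most summits lie at multiples of 32 bp, so that distances from a summit are no finer than that. The first group holds the highest intervals of Dnm3, and the other group the intervals over the start of Dnm3os and over the Mir214 hairpin.
Dnm3 interval of height 63, chr1:164184188-164184387, plus strand: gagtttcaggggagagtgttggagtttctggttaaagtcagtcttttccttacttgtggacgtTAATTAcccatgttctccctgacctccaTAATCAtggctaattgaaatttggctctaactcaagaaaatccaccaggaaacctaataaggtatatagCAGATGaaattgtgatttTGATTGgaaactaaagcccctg
Dnm3 interval of height 55, chr1:163954108-163954307, plus strand: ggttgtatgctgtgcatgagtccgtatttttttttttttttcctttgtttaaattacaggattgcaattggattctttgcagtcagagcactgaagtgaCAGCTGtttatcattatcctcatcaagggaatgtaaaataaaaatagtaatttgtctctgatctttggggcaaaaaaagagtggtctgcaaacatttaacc
Dnm3 interval of height 51, chr1:164235356-164235555, plus strand: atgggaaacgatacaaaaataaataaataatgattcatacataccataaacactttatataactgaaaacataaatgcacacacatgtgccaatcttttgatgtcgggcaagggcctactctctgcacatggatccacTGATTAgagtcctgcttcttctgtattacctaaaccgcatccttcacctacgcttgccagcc
Dnm3os interval at Mir199a-2, chr1:164148140-164148339, plus strand: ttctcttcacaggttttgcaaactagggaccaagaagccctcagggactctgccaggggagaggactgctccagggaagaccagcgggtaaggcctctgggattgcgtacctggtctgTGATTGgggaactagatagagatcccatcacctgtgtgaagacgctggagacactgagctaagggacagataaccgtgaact
Dnm3os interval at Mir214, chr1:164153436-164153635, plus strand: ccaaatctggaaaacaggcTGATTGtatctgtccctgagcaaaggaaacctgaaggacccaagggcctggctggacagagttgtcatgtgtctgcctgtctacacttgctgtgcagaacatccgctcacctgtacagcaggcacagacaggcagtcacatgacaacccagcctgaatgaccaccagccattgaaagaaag

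Dnm3 spans 496 kb on the minus strand (GENCODE ENSMUSG00000040265.9, chromosome 1, 163912584 to 164408165), and its 14 summits were spread over 355 kb of it. All 14 lay in introns of its 21-exon transcript. Intron 14, the longest at 97.1 kb, held 6 of them, intron 17 held 2, and introns 2, 10, 13, 16, 18 and 20 held 1 each. Introns 1 and 15, of 70.3 kb and 50.3 kb, held 0. The intervals covered 4.09% of the gene, against 0.238% of the genome covered by all LHX6 intervals. Distances to the gene start given by the authors and those computed from GENCODE differed by no more than 5 bp for all 14.

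No interval lay at the Dnm3 start. The summit nearest to it was 119 kb inside the gene, and beyond the start the next was 262 kb away, so that 381 kb around the start held none. A shorter set of Dnm3 transcripts begins at 164225767, and the interval of height 51 lay 9.69 kb upstream of that start. The other 13 summits in Dnm3 were 24.5 kb or more from any protein-coding start.

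The highest interval of Dnm3 reached 63, rank 138 of the 6566, and lay in intron 13, 36.5 kb past the Dnm3os start (164183781 to 164185609). It was also the longest interval of those assigned to Dnm3 alone, at 1828 bp, and had a mean density of 16.8. Its summit window held a TAATTA centred 34.5 bp before the summit, a TGATTA 6.5 bp before it and a TGATTG 80.5 bp after it, with a CATCTG 62.5 bp after it. It was the only 1 of the 14 with all 3 hexamers, which was so for 1.72% of all 4015 intervals over 1 kb from a protein-coding start.

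The next interval by height reached 55, rank 220, and lay in intron 17, far toward the 3′ end of the gene (163953337 to 163954671). Its window held a CAGCTG at 1.5 bp from the summit and none of the 3 homeodomain hexamers. The interval of height 51, rank 273, lay in intron 10 (164235043 to 164236248), held 1 TGATTA at 40.5 bp from the summit, and had the highest mean density of the locus, 18.8. These 3 intervals were 21.4% of the Dnm3 intervals. A height of 50 or more was reached by 4.66% of all LHX6 intervals and by 6.81% of the 793 intervals in other genes of at least 200 kb that lay over 1 kb from a start; the limit of 50 was set after the heights were seen.

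The remaining intervals of Dnm3 were of common height. Those at 30, 30, 30, 27, 25 and 25 stood above the median of 22 of all LHX6 intervals, and those at 21, 19, 18, 18 and 12 below it. The lowest, at 12, ranked 6526 and was the one nearest to the Dnm3 start, in intron 2 (164289242 to 164289982). The median of the 14 was 26, against 22 for all LHX6 intervals (interquartile range 18 to 28) and 23 for those in other long genes. Mean density was closer still, with a median of 10.9 in Dnm3 against 10.3 over all intervals, or 1.05 times, where height gave 1.18 times.

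**Figure D1:**
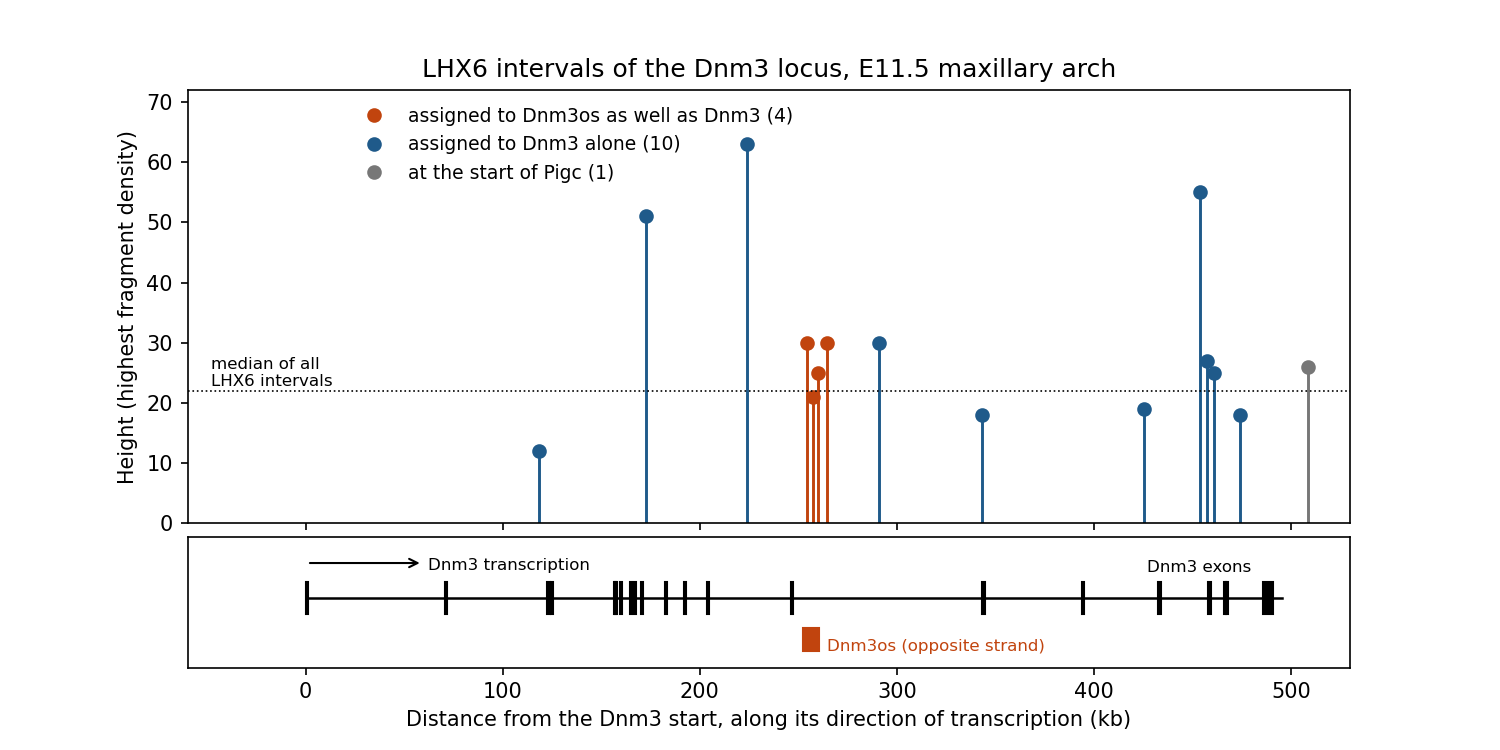
Height of each LHX6 interval (vertical axis, highest fragment density) against the distance of its summit from the Dnm3 start in kb (horizontal axis, in the direction of Dnm3 transcription), with the Dnm3 exons and Dnm3os drawn to scale under it, except that the shortest exons are widened to be visible. Orange points are the 4 intervals assigned to Dnm3os too, blue points the 10 assigned to Dnm3 alone, the grey point is the interval at Pigc, and the dotted line is the median of 22; the points of height 63, 55 and 51 stand apart along the gene, and the 119 kb next to the start hold none.

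Of the 14 summits of Dnm3, 7 fell into a pair of tight runs, and the other 7 stood 13.1 kb or more from any other summit in the gene. Of the 13 distances between neighbouring summits, 5 were under 10 kb and 4 were over 40 kb, with a median of 26.4 kb and a range from 2.32 to 82.1 kb. In the run near the 3′ end, intervals of height 25, 27 and 55 lay 3.49 kb and 3.39 kb apart. The other run, of 4 intervals with summits 4.8, 2.32 and 2.98 kb apart, was that of Dnm3os. Among the 33 genes of at least 200 kb with 5 or more summits, the median spacing in Dnm3 ranked 8 from the shortest, and the median of the 33 was 45.9 kb.

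The run near the 3′ end of Dnm3 also lay within Pigc, which encodes an enzyme of glycosylphosphatidylinositol anchor synthesis. GENCODE lists a long noncoding transcript of Pigc, on the plus strand, that reaches over the last part of Dnm3, and 4 of the 14 summits lay inside it. The authors assigned these 4 intervals to Dnm3 alone. The interval of height 25 in this run lay in an exon of a short noncoding transcript of Dnm3.

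The interval outside Dnm3 lay at the start of Pigc itself, 13.4 kb past the 3′ end of Dnm3 (163898859 to 163899704, height 26). It overlapped a CpG island, and it held a TGATTG 5.5 bp from its summit. Of the 14 intervals inside Dnm3, 0 overlapped a CpG island, which 41.6% of all LHX6 intervals and 9.79% of those over 1 kb from a start did. The next intervals on either side fell well outside the 50 kb limit. They lay 262 kb beyond the Dnm3 start, at Bat2d (now Prrc2c, height 18), and 912 kb past its 3′ end. The neighbouring protein-coding genes Tnfsf18, Fasl, AI848100, Mettl13, Vamp4, Gm5705, Myoc, 7420461P10Rik and Fmo1 to Fmo4, and Gm10176 at the Dnm3 start, held no summit, and the summit at Pigc also lay within 4930558K02Rik, on the other strand.

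Dnm3os (GENCODE ENSMUSG00000078190.4, chromosome 1, 164147754 to 164155681, plus strand) lies in intron 14 of Dnm3, and LHX6 intervals covered most of it. It is 7928 bp long, and 7171 bp of it, 90.5%, lay inside LHX6 intervals. Of 6347 protein-coding genes of between 0.5 and 2 times that length, 862 overlapped any interval, with a median of 7.25% of their length covered. The share covered in Dnm3os was reached by 1 of the 6347, or 0.0158%: Tbx2, a T-box factor gene, with 99.0%. Dnm3os is noncoding and lies in the gene selected for its intervals, so this comparison with protein-coding genes carries no test.

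The 4 intervals assigned to Dnm3os covered 9872 bp of a stretch of 13.2 kb. The one upstream of it, 4.31 kb before its start, was short, at 735 bp, with a height of 30 (164143214 to 164143949). The one over its start was 3124 bp long with a height of 25 (164146547 to 164149671), and its summit lay 486 bp after the start. The next had a height of 21 and 1375 bp (164150160 to 164151535), with its summit 2.81 kb after the start. The last was 4638 bp long with a height of 30 (164151805 to 164156443), and it extended past the end of Dnm3os.

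The intervals over the Dnm3os start and over Mir214 ranked higher by length than by height. By length, the interval over Mir214 ranked 8 of 6566 and that over the start 17, while by height they ranked 1341 and 2248. By total density, which is the mean density multiplied by the number of bins, they ranked 8 and 26. The 4 intervals together held 49.2% of the total density of all 14 Dnm3 intervals. Their median height was 27.5, against 26 for the other 10 intervals of Dnm3, and their lengths were 735, 1375, 3124 and 4638 bp, against a median of 963.5 bp and a maximum of 1828 bp for the other 10.

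**Figure D2:**
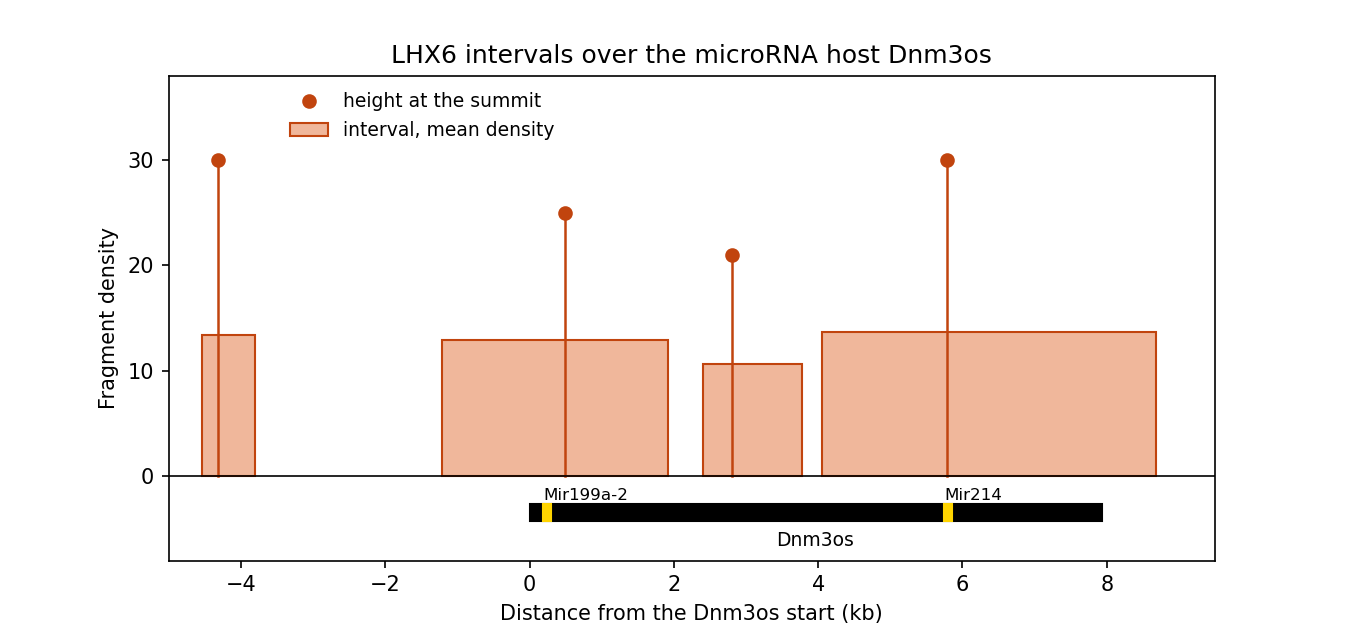
LHX6 intervals over Dnm3os, with fragment density on the vertical axis and distance from the Dnm3os start in kb on the horizontal axis. Each box spans an interval at its mean density, each point is the height at the summit, the black bar is Dnm3os and the yellow marks are the hairpins; the box with a summit at 5.78 kb covers Mir214 and the box with a summit at 0.486 kb covers Mir199a-2.

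Intervals over 3000 bp made up 0.335% of all LHX6 intervals, 22 in number, and a CpG island was present in 18. The 4 without one comprised both of the long Dnm3os intervals, 1 at Prrx1, a homeobox gene of craniofacial mesenchyme, and 1 at Mirn125b-1, another microRNA gene (chromosome 9, 41389271 to 41392779, height 42). When intervals with gaps of up to 3 kb were joined, 15 of 6212 groups (0.241%) held 4 or more intervals, and that of Dnm3os ranked 6 by length covered and 5 by total density. The groups covering more lay at Tbx3 and Tbx2, which encode T-box factors, at the homeobox gene pair Dlx1 and Dlx2, at Prrx1, and at Mab21l2. In 13 of the 15 groups at least 1 interval overlapped a CpG island, and the exceptions were those of Dnm3os and Mirn125b-1. These genes were named, and the limits on length and number set, after their values were seen.

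**Figure D3:**
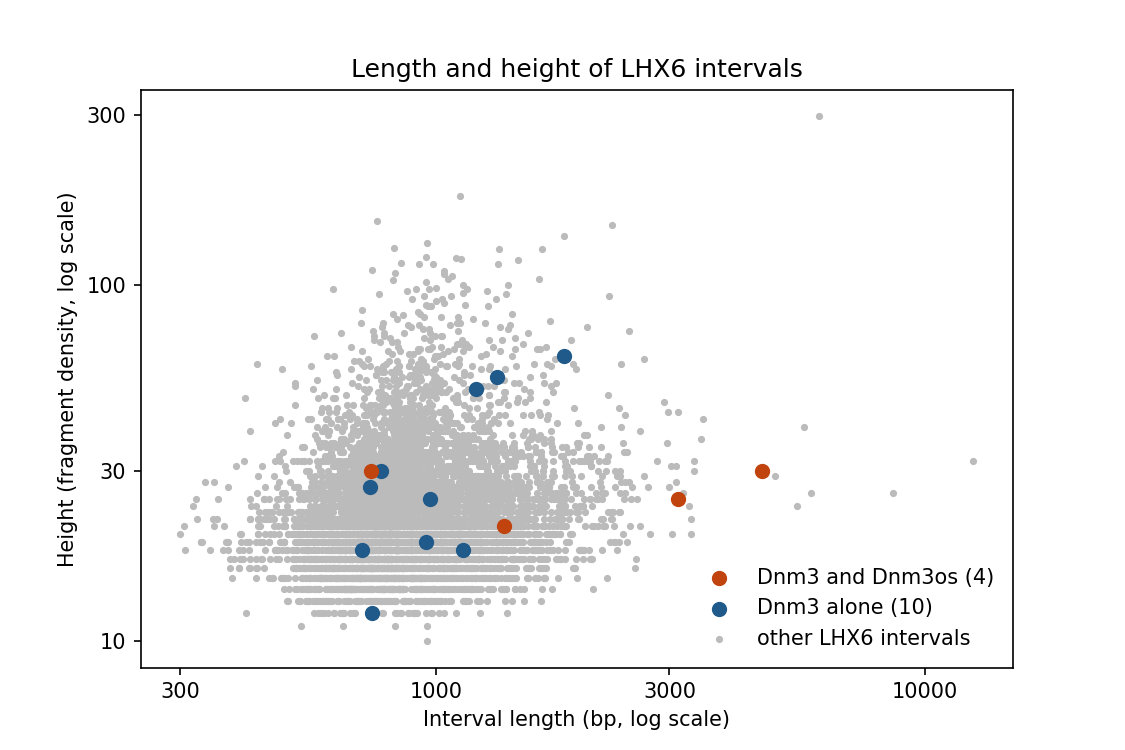
Length in bp (horizontal axis, log scale) and height (vertical axis, log scale) of each LHX6 interval. Orange points are the 4 intervals assigned to both Dnm3 and Dnm3os, blue points the 10 of Dnm3 alone and grey points the 6552 others; the orange points at 3124 and 4638 bp lie far to the right at ordinary heights of 25 and 30, and the blue points of height 51 to 63 lie above most other intervals.

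Both microRNA hairpins of Dnm3os lay inside an interval. The Mir199a-2 hairpin (164147945 to 164148054, plus strand) begins 191 bp after the Dnm3os start, and the nearest summit lay 186 bp past its end. The Mir214 hairpin (164153499 to 164153608, plus strand) begins 5745 bp after the start, and the summit of the 4638 bp interval lay inside it, 37 bp from its first base. Being inside an interval was so for 1.4% of the 1576 microRNA genes of GENCODE. Both hairpins lie in a gene selected for its intervals, so the comparison carries no test. In the windows shown above, the Mir199a-2 interval held 1 TGATTG, 204 bp after the hairpin, and the Mir214 interval held 1 TGATTG, 39 bp before the hairpin.

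The promoter of Dnm3os, from 250 bp before to 50 bp after its start, is shown because the 3124 bp interval covered it; capitals mark the same hexamers.
Dnm3os promoter, chr1:164147504-164147803, plus strand: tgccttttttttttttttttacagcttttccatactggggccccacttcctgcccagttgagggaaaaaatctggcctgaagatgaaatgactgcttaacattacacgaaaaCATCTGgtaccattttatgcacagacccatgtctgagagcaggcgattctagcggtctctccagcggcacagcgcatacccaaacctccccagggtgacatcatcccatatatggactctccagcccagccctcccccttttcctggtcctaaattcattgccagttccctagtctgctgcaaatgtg
It held 1 CATCTG, 138 bp before the start, and no CAGCTG or homeodomain hexamer. CATCTG on either strand was present in 15.1% of the promoters of 22350 protein-coding genes, each taken over the same 300 bp. The summit lay outside this stretch, and the match is a description of the letters alone.

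The relatives of Dnm3 also carried an interval beside a microRNA of the same family. Mir199b lies opposite Dnm1, which encodes the dynamin of nerve endings, and Mir199a-1 lies opposite Dnm2, which encodes the dynamin found in most tissues. The Dnm1 interval (chromosome 2, 32174298 to 32176955) had a height of 62, rank 145, a length of 2657 bp and a summit 1335 bp past the Mir199b hairpin (32173980 to 32174089), and its edge lay 209 bp from the hairpin. The Dnm2 interval (chromosome 9, 21300905 to 21302193) had a height of 46, rank 362, and covered the Mir199a-1 hairpin (21300939 to 21301008), with its summit 304 bp upstream of it. Neither overlapped a CpG island.
Dnm1 interval at Mir199b, chr2:32175324-32175523, plus strand: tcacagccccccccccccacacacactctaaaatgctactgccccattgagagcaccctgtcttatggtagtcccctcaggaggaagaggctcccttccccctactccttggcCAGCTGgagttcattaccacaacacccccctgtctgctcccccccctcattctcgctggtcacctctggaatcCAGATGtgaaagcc
Dnm2 interval at Mir199a-1, chr9:21301212-21301411, plus strand: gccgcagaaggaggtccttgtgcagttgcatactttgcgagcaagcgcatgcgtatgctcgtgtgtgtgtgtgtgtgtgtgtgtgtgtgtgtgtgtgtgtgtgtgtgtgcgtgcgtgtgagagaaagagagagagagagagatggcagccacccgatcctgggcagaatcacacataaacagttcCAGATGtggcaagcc

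All 3 hairpins of the miR-199 family and that of Mir214 thus had a summit within 2 kb. This was so for 3.81% of the microRNA genes of GENCODE, and the distance of 2 kb was chosen after these values were seen. Mir199a-2 and Mir214 lie in the locus selected for its intervals, so only Mir199b and Mir199a-1 were outside that choice. Neither window at Mir199b or Mir199a-1 held a homeodomain hexamer. The Mir199b window held 1 CAGCTG and 1 CATCTG, and the Mir199a-1 window held 1 CATCTG near its edge. The Mir199a-1 window also holds a run of GT repeats of 49 bp, and the part of such repeats in the height of 46 was not tested. Dnm1 had no other interval, and Dnm2 had 1 more, at its own CpG island start, with a height of 18. In summits per 100 kb Dnm1 had 2.23 and Dnm2 had 2.41, from 1 and 2 summits, against 2.82 from the 14 of Dnm3.

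**Figure D4:**
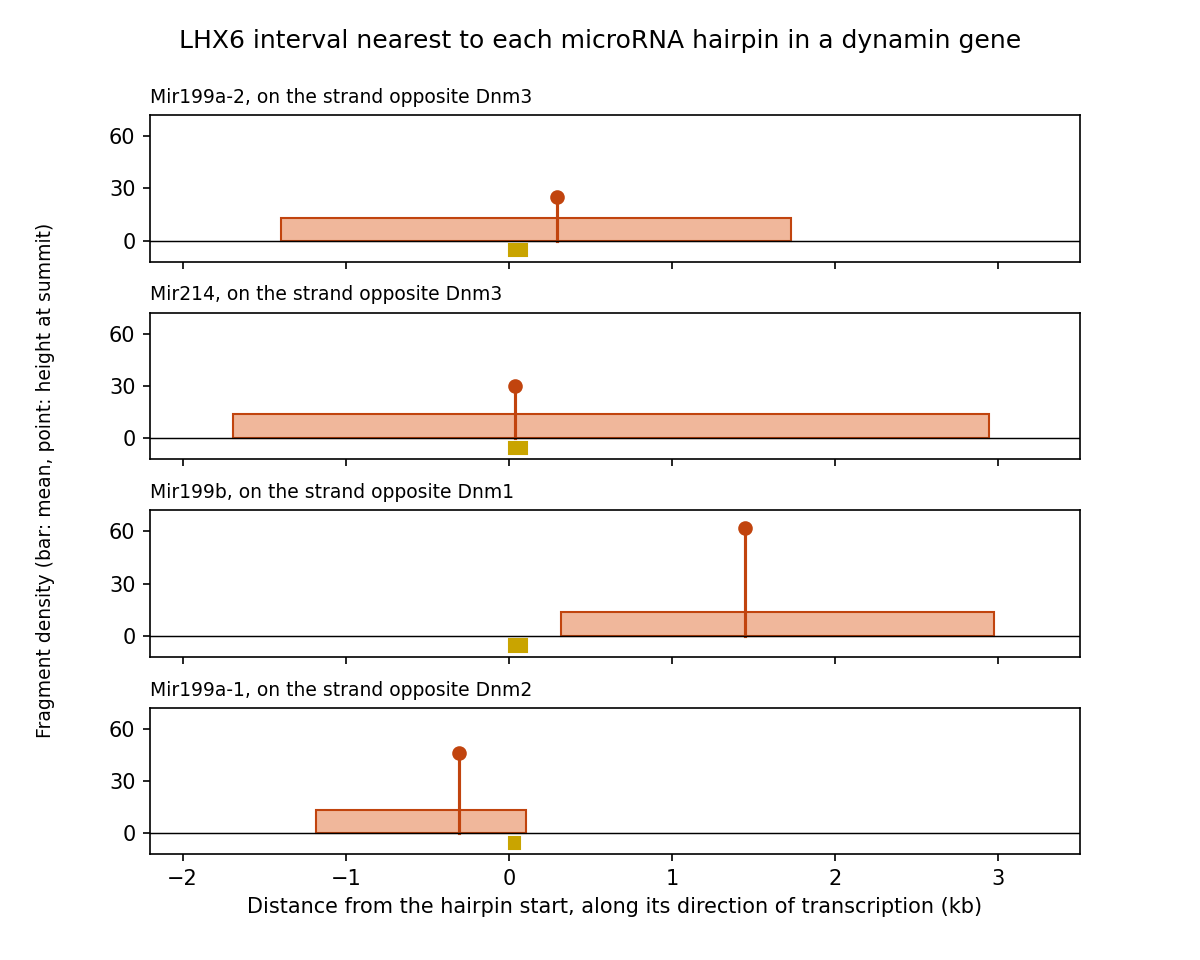
The interval nearest to each of the 4 microRNA hairpins that lie opposite a dynamin gene, with fragment density on the vertical axes and distance from the hairpin start in kb on the horizontal axis, in the direction of the microRNA. Boxes span the interval at its mean density, points are the heights of 25, 30, 62 and 46 from top to bottom, and the bar under each axis is the hairpin; the hairpin falls inside the box in all panels but that of Mir199b, where the box begins 209 bp further on.

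Dnm3 stood near the top of long genes in intervals per length. It held 2.82 summits per 100 kb, rank 2 of the 954 protein-coding genes of at least 200 kb, of which 0.21%, Dnm3 included, were at or above that value. Of these genes, 45.4% held at least 1 summit, the upper quartile was 0.378 per 100 kb, and their pooled sequence had 0.230 per 100 kb, so that Dnm3 had 12.3 times as many. Without the 4 intervals assigned to Dnm3os it held 10 intervals, 2.02 per 100 kb, and ranked 5. With a minimum length of 100 kb in place of 200 kb, its rank was 10 of 2399 genes, and with 400 kb it was 1 of 322. With intervals up to 3 kb apart counted as 1 in every gene, it held 9 and also ranked 5, with 1.82 per 100 kb.

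The gene ahead of Dnm3 was E130114P18Rik, with 9 summits in 210 kb and 4.29 per 100 kb. After Dnm3 came Runx2, the master regulator of bone formation, which GENCODE lists as 2 entries (2.41 per 100 kb in the shorter), Vps13d (2.25), Bcas3 (2.11), Ccbe1, which acts in lymphatic growth (1.94), Fbn1, which encodes the matrix protein fibrillin 1 (1.93), Supt3h, whose gene overlaps that of Runx2 (1.75), Tns3 (1.72) and Trps1, a zinc finger repressor of cartilage and hair (1.70). All of these held 4 to 10 summits, fewer than Dnm3. By number alone Dnm3 was exceeded by Gm20388, a gene model of 4435 kb that encloses 72 other protein-coding genes and held 37 summits.

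The 10 protein-coding genes nearest to Dnm3 in length, from 487 to 504 kb, held a median of 0 summits. Aff3 held 2, with a highest interval of 26, and Edil3, which encodes a matrix protein, held 1, of height 38. The other 8 (Ank3, Abca13, Kcnh7, Prkce, Dennd1a, Dock1, Car10 and Ank2) held 0. This holds for those 10 alone. Just past them, Kcnma1 (504.5 kb) and Slc25a21 (484.8 kb) held 7 summits each, Rad51l1 (505.9 kb) and Hdac9 (481.3 kb) held 5 each, and Bcas3 (472.9 kb) held 10; these 5 were picked after their values were seen.

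**Figure D5:**
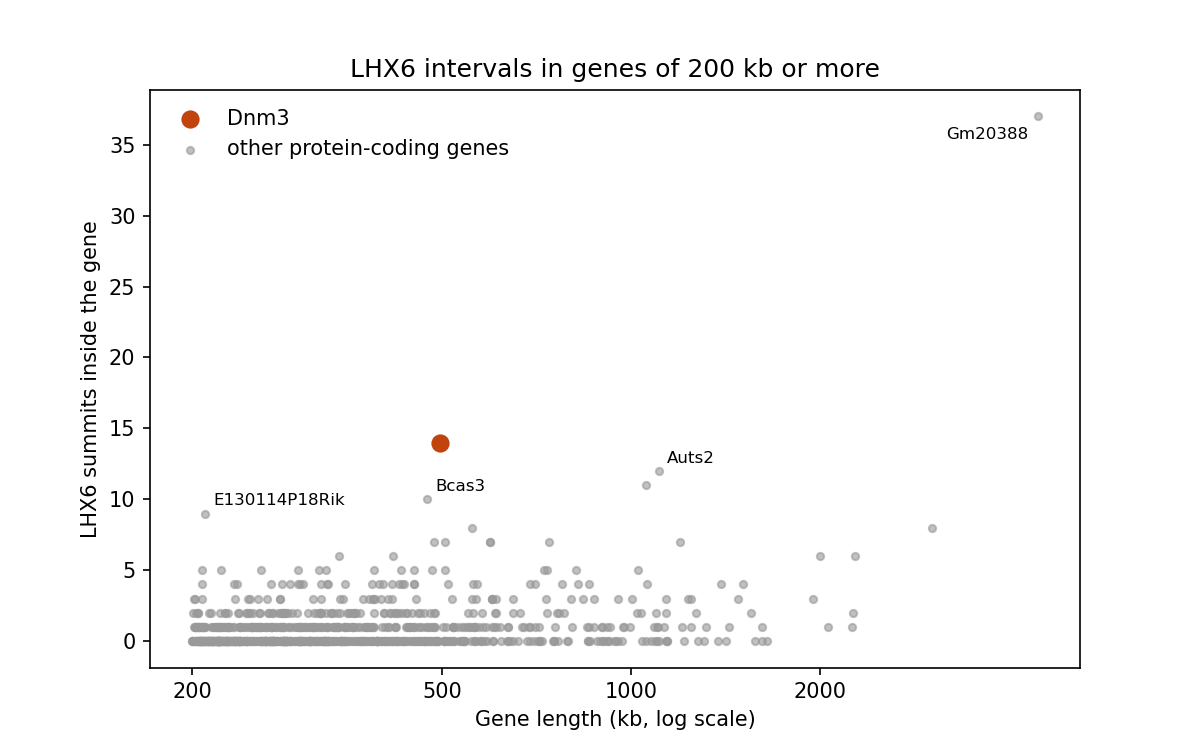
Number of LHX6 summits inside each protein-coding gene of at least 200 kb (vertical axis) against gene length in kb (horizontal axis, log scale), with Dnm3 in orange and the other 953 genes in grey. Dnm3, with 14 summits in 496 kb, lies above every gene but Gm20388, and 521 of the 954 genes lie at 0.

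Not every Dnm3 summit held a hexamer. The shares rest on 14 summits of 1 gene, chosen by this same library, so they are rough descriptions and carry no test. At least 1 of the 3 homeodomain hexamers occurred within 100 bp of the summit in 8 of the 14 intervals (57.1%). The share was 64.6% for all intervals over 1 kb from a start and 73.1% for those in other long genes. In the 2361 other 200 bp windows of Dnm3 that lay outside intervals the share was 24.6%. Among all intervals over 1 kb from a start the share rose with height. It was 55.6% under a height of 25, 74.8% at 25 to 49 and 88.5% at 50 or more. The Dnm3 intervals with a hexamer were 2 of 5, 4 of 6 and 2 of 3 in the same order. TGATTG was found in 4 of the 14 (28.6%), against 38.5% of distal intervals and 41.6% of those in other long genes. TGATTA was in 2 (14.3%), against 34% and 43.1%. TAATTA was in 5 (35.7%), against 13% and 15.4%. With the window centred on the middle of the interval in place of the summit, the number of the 15 intervals of the locus with a hexamer was 5, against 9 at the summit.

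E-boxes were found at 6 of the 14 summits, against 44.4% of distal intervals and 21.3% of the other windows of Dnm3. CATCTG was in 5 of the 14 (31.1% of distal intervals) and CAGCTG in 1 (19.8%). Both kinds of hexamer together were in 3 of the 14, those of height 63, 27 and 19, against 27.5% of distal intervals. The windows of 3 intervals, with heights of 30, 25 and 21, held none of the 5 hexamers, and 2 of these intervals were assigned to Dnm3os.

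Genes that act with Dnm3 or with its microRNAs were examined as lists, which were chosen with earlier results of these data known. Of 9 members of the dynamin superfamily, 4 had an interval assigned by the authors, which 20.5% of protein-coding genes had. Dnm3 is among the 4 by its selection, since it was chosen for its intervals. Besides Dnm1, Dnm2 and Dnm3, the member with an interval was Opa1, a dynamin of mitochondrial fusion. The Opa1 interval (height 20) lay 78.3 kb from the start of Opa1 and outside the gene. Dnm1l, Mx1, Mx2, Mfn1 and Mfn2 had none in the list. In the list of 5 microRNA genes and Dnm3os, Mir199a-2, Mir214 and Dnm3os share the same 4 intervals, and Mir199a-1 and Mir199b have the 1 each described above, so these are not separate results; Mir3120 is not in the gene annotation used here.

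Of 24 partners of dynamin in endocytosis, 7 had an interval assigned by the authors, or 29.2%, against 20.5% of protein-coding genes. A summit lay inside the gene for 2 of the 24. Itsn1, which encodes a scaffold that recruits dynamin, had 3 intervals inside the gene, with heights of 38, 29 and 14. Intervals at the starts of Snx18 (height 36), a membrane-bending adaptor gene, and Clta (height 22), a clathrin light chain gene, overlapped CpG islands. The highest interval of Sh3gl1 (147) and those of Synj1 (17), Dnajc6 (26) and Trip10 (25) were on a CpG island. Each lay under 1 kb from an annotated protein-coding start, whose gene is not given here. The authors give them as 28.2, 76.7, 96.8 and 1.77 kb from the genes to which they are assigned. The other 17, among them Amph, Bin1 and Cltc, had none in the list.

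Of 7 genes reported to regulate miR-199a and miR-214 or to be their targets, 6 had an interval, or 85.7%, against the 20.5% of protein-coding genes. Twist1 had 2, with heights of 24 and 15, and the higher of them was 5465 bp long (chromosome 12, 34642496 to 34647961). It is among the 22 intervals over 3000 bp, as are the Dnm3os intervals of 3124 and 4638 bp. Unlike those, it overlapped a CpG island. Ezh2, which encodes the methyltransferase of Polycomb complexes and is a target of miR-214 in muscle, had 1 of height 23 near its start. Atf4, a factor of bone formation, had 1 of height 29 at its start. Sufu, an inhibitor of hedgehog signalling, had 1 of height 21 inside the gene, and Jag1, a Notch ligand gene, 2 of height 27 and 21. Ctnnb1 had none in the list.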

How the data were processed

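Maxillary arches were pooled for 1 LHX6 ChIP-seq library and 1 input library, and 20 µg of chromatin went into the ChIP. BWA placed the reads on mm9 and each was lengthened in silico to a fragment of 150 bp, as the labels' protocols state. Among the submitters' processing notes MACS is listed without a version; the settings and threshold used to call intervals are not stated. The signal values (height and mean density) are those the authors deposited, and the list has no p-value or fold enrichment. Read totals are unknown, so precision from depth cannot be given.

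Positions were set against NCBIM37 with GENCODE M1 genes. Whether positions count from 0 or 1 is not stated, so windows may be off by 1 bp; 79.2% of summits are multiples of 32 bp. Embryos were CD-1, and printed sequence is that of the reference strain. A summit was counted as inside a gene between its outermost GENCODE ends. Motifs were searched on both strands in 200 bp summit windows; TAATTA and CAGCTG read the same on both. Older gene names were matched through RefSeq synonyms. RefSeq hairpins equalled NCBIM37 at all 4 loci, and Mir199b was placed that way. Counting and motif search were tested on simulated data. Python 3.11.15, NumPy 2.4.6, SciPy 1.17.1 and matplotlib 3.10.9 were used.

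The members, lists and motifs were chosen with earlier results of these data known. Named genes were Dnm3, Dnm3os and their microRNAs, the 10 long genes with most summits per 100 kb, the 10 nearest in length, neighbouring genes and list members; others are said to be chosen later. Comparisons with other genes are descriptions without a test, since there is 1 library per group. Alternatives covered the overlap rule, height, gene length, flank, motif window and, added later, leaving out or joining intervals. Mir3120 and the H3K27ac experiment were not analysed here, and the values of 1 gene of the lists are not reported here.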

Additional observations from a re-analysis of the deposited data

How the results depend on the processing

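The count of 14 summits in Dnm3 was also 14 with overlap in place of summits, with the authors' gene assignment and with summits over 1 kb from a start. It was 9 with intervals at or above the median height and 9 with gaps up to 3 kb joined, in each case by construction, since fewer intervals remain. The rank of 2 was 10 of 2399 genes with a minimum length of 100 kb, 1 of 322 with 400 kb, and 5 both without the Dnm3os intervals and with gaps joined, settings chosen after the data were seen. The number of locus intervals with a homeodomain hexamer was 5 at the interval middle, and the cause was not tested. The median spacing of 26.4 kb was 15.9 kb with the higher intervals alone. The other alternatives stayed within 1.5 times. No paired analysis was possible because there is 1 library per group, and no replicate could be left out. Depth limits are unknown, since read totals are.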
